A study of Mus musculus with 2 samples.

Results

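Mir22 (ENSMUSG00000065529.1) is the gene of the microRNA miR-22, and here its level was measured in calf muscle, the gastrocnemius. It was found as the only row of both deposited count tables whose Ensembl identifier maps to Mir22 in GENCODE M21, 1 of 2202 microRNA gene rows. Mir22 was chosen by its measured CPM and rank in these same libraries, so its level and rank are given as a description, with no test. The study sequenced microRNAs from total RNA of B6CASTF1/J females, hybrids between C57BL/6J and CAST/EiJ mice, at 25 days of age, with a size range below 30 stated in the labels. Its 2 libraries are biological replicates of 1 group, for which no treatment is named, prepared from gastrocnemius tissue of females that the labels number separately under the same donor identifier. Nothing else in the labels says whether these are separate animals, so every spread given here is between libraries and may be technical. With 1 tissue and 1 age, the data show what share of the reads counted to microRNA genes Mir22 held. Reads with several alignments were counted to no gene, so this is not a share of all microRNAs. The data cannot show whether muscle holds more of Mir22 than other tissues.

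A microRNA is cut from the hairpin of a longer transcript and guides an Argonaute protein to messenger RNAs that match its seed, bases 2 to 8 of the mature strand. In mice, miR-22 is known from striated muscle and heart, where its loss blunts the growth of the heart under stress, and it is also found in blood and many other cells. Reported targets include the messenger RNAs of Hdac4, a histone deacetylase that restrains muscle genes, and of Sirt1, an NAD-dependent deacetylase.

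The sequences of both arms of the hairpin are shown because the counts belong to the hairpin as a whole and either arm could contribute to them. They are from RefSeq (GRCm38.p6, the assembly also named mm10), with the seed in capitals.
miR-22-5p: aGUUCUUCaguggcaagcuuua
miR-22-3p: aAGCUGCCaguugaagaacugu
Mir22 hairpin: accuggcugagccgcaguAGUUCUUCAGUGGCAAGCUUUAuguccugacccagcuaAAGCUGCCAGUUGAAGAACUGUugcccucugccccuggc
In the hairpin the capitals mark the arms, bases 19 to 40 and 57 to 78, each of 22 bases. The hairpin has 95 bases and spans chr11:75463716-75463810 on the forward strand. The mature strands lie at chr11:75463734-75463755 for miR-22-5p and chr11:75463772-75463793 for miR-22-3p. In the predicted fold of lowest energy, 19 of the 22 bases of the 5p arm paired with bases of the 3p arm. A messenger RNA matches the seed of miR-22-3p by the letters GGCAGCU.

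The hairpin had no second copy among the sequences searched. Of the 2201 other annotated microRNA hairpins, 0 shared a stretch of 22 bases with it on either strand, and 0 shared one of 18 bases. In the GENCODE M21 transcripts of 55450 genes, such a stretch was found only in Mir22hg and Tlcd2, the genes that the hairpin lies in. The genome outside annotated transcripts was not searched. This bears on the counts because reads with several alignments were assigned to no gene; they were 69.7% of the reads of replicate 2 and 68.6% of those of replicate 1. Over all 2202 rows, 1032 shared a stretch of 22 bases with a hairpin at another place, as did 63 of the 324 genes that reached 2 CPM in both libraries. None of the 20 most abundant genes did. Because the counting leaves out reads that align to several places, this does not show what ranks genes with shared stretches would otherwise have.

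The seed of miR-22-3p was carried by no other of the 1738 mature entries of the RefSeq table, and neither was that of miR-22-5p. Such a seed is common in this table, which is not complete: 72.1% of its 1679 distinct names had a seed of their own. Bases 2 to 7 of miR-22-5p also occurred in miR-6935-3p and miR-7092-3p. Mir6935 had 1 count in replicate 2 and 4 counts in replicate 1, and Mir7092 had 0 in both. The mature sequence nearest to miR-22-3p was miR-3966, 3 edits away, shown with the 9 bases it shares with bases 2 to 10 of miR-22-3p in capitals.
miR-3966: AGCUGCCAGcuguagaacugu
The shared stretch starts 1 base earlier in miR-3966, so the seeds of these microRNAs differ. Mir3966, on chromosome 10, had 0 counts in both libraries, which allows up to 0.553 CPM in replicate 2 and 1.91 CPM in replicate 1.

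Mir22 lies inside the exon of a non-coding host transcript. Mir22hg (ENSMUSG00000085148.1), its host gene, spans chr11:75461539-75466676 on the same strand, a length of 5138 bases. Both annotated Mir22hg transcripts hold the whole hairpin in exon 2, which starts 23 bases before it. That exon spans chr11:75463693-75463857 in Mir22hg-202 and runs on to 75464029 in Mir22hg-201. The protein-coding gene Tlcd2 (ENSMUSG00000038217.13), which codes for a TLC domain protein, overlaps this locus on the same strand. Of its 4 annotated transcripts, only Tlcd2-203, annotated as a processed transcript without a protein, includes the hairpin, also in exon 2. The protein-coding Tlcd2 transcripts start 4363 bases beyond the first base of the hairpin. The nearest genes on either side are Wdr81, on the opposite strand, and Prpf8, a core component of the spliceosome, which starts 23100 bases downstream. The tables hold microRNA genes, and the level of the host transcripts was not measured.

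**Figure D1:**
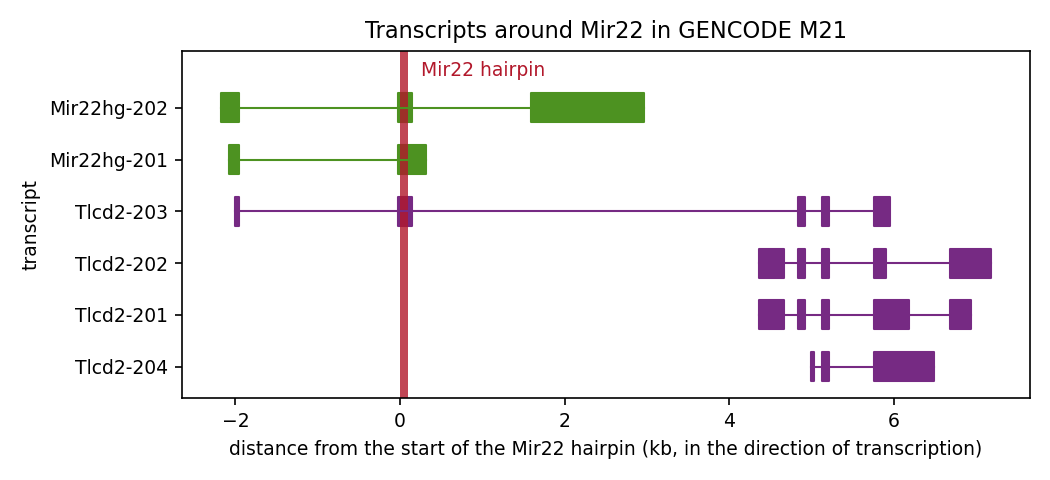
Annotated transcripts of Mir22hg (green) and Tlcd2 (purple) drawn to scale, with exons as boxes, introns as lines and the Mir22 hairpin as a red bar, against the distance in kb from the start of the hairpin. The hairpin falls in exon 2 of Mir22hg-202, Mir22hg-201 and Tlcd2-203, and outside the other 3 Tlcd2 transcripts.

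Mir22 was among the most abundant microRNA genes of both libraries. Replicate 2 held 313162 Mir22 reads among 5429127 counts on the strand of microRNA genes, and replicate 1 held 77299 among 1573213. This came to 57682 CPM (counts scaled to 1000000 microRNA-gene counts per library) in replicate 2 and 49134 CPM in replicate 1, a mean of 53408 ± 6044 CPM (SD, n = 2). Mir22 was thus the sixth gene in both libraries: its rank was 6 in replicate 2 and 6 in replicate 1. Levels and ranks are those of genes as counted, which leaves out reads with several alignments.

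As a share, Mir22 made up 5.77% of microRNA-gene counts in replicate 2 (exact Clopper-Pearson 95% interval 5.75 to 5.79) and 4.91% in replicate 1 (4.88 to 4.95). These intervals cover counting error only, since reads are not independent molecules, and they do not overlap. Of all reads aligned to 1 place, Mir22 made up 5.36% in replicate 2 and 4.47% in replicate 1, and of all aligned reads 1.38% in replicate 2 and 1.14% in replicate 1. Its level was 467 times the median gene in replicate 2 and 370 times that in replicate 1, over the 324 genes at 2 CPM or more in both. The 5 genes above it held 39.7% of the counts in replicate 2 and 41.9% in replicate 1.

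Every Mir22 read lay on the strand of the gene. The column that ignores strand held the same 313162 reads in replicate 2 and 77299 in replicate 1, and the opposite-strand column held 0 in both, which allows up to 0.553 CPM in replicate 2 and 1.91 CPM in replicate 1. No annotated microRNA gene lies opposite Mir22. Equal counts in these columns are not particular to Mir22: Mir23a, Mirlet7g, Mir23b, Mirlet7i and Mir206 had them too. They were absent for Mir378a and Mir126a, the leading genes by mean level. In the column that ignores strand, Mir378a had 0 in both libraries, and Mir126a had 9 in replicate 2 and 3 in replicate 1. Their opposite-strand counts were 0 in both libraries for Mir378a and 1 in each for Mir126a. When strand was ignored, Mir22 ranked 4 by mean level, with Mir378a and Mir126a falling below it.

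Of the 10 genes nearest in rank, 4 had means that differed from that of Mir22 by less than the larger SD of the pair. Mir23a, which has been linked to muscle wasting in mice, stood at 58901 CPM in replicate 2 and 52008 CPM in replicate 1, above Mir22 in both. Mir206, which is specific to skeletal muscle, changed sides, at 72482 CPM in replicate 2 and 34864 CPM in replicate 1. Mirlet7g, of the let-7 family that restrains growth, also changed sides, at 52678 CPM in replicate 2 and 52119 CPM in replicate 1. Mir143, abundant in smooth muscle cells and fibroblasts, lay above Mir22 in both libraries but with an SD of 48308 CPM, its level being 59272 CPM in replicate 2 and 127590 CPM in replicate 1.

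With counts scaled by library totals, the other 6 neighbours stood clear of Mir22 by more than the larger SD. They lay on the same side of it in both libraries. Above it were Mir378a, in the intron of a coactivator gene of mitochondrial metabolism, at 98707 ± 6479 CPM (SD, n = 2), and Mir126a, an endothelial microRNA, at 98348 ± 7099 CPM. Below it were Mir23b at 45834 ± 2399 CPM, Mirlet7i at 42234 ± 221 CPM, Mir26b at 27840 ± 1020 CPM and Mir99a at 27177 ± 1233 CPM. Mir23b was 7574 CPM and Mirlet7i 11175 CPM below Mir22. The SD of Mir22 was larger with other scalings, 8117 CPM with TMM and 11352 CPM with DESeq2 size factors. Whether Mir23b and Mirlet7i stay clear of it under those was not tested. The drop from Mirlet7i to Mir26b, past which no further gene came near the level of Mir22, was wider than any step between Mir23a and Mirlet7i.

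**Figure D2:**
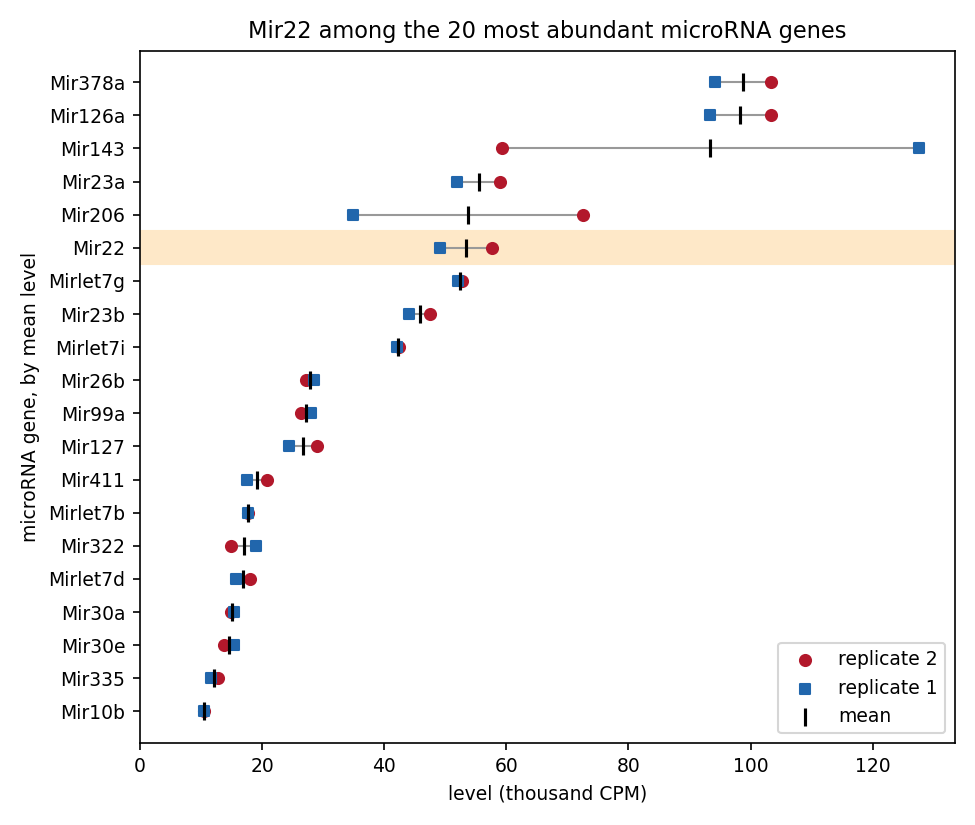
Levels of the 20 most abundant microRNA genes, on an axis in units of 1000 CPM, with replicate 2 as red circles, replicate 1 as blue squares and the mean as a black bar; the row of Mir22 is shaded. Mir22 sits at 57682 CPM in replicate 2 and 49134 CPM in replicate 1, in a group from Mir23a to Mirlet7i, while Mir143 and Mir206 spread far wider.

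The genes most like Mir22 were Mir23a, Mirlet7g, Mir23b, Mirlet7i and Mir206, in that order. Likeness was the Euclidean distance of log2(CPM + 1) over the 2 libraries, and ran from 0.09 for Mir23a to 0.59 for Mir206; the next gene, Mir126a, lay at 1.25. Over so few libraries it measures little beyond level, and ranking by the difference in mean log2(CPM + 1) gave the same 5 genes. Mature strands of these genes are shown with their seeds in capitals, to compare with miR-22-3p; for Mir23b none is printed.
miR-23a-3p: aUCACAUUgccagggauuucc
let-7g-5p: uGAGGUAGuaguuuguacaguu
let-7i-5p: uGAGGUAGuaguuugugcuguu
miR-206-3p: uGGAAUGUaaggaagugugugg
The let-7 strands share a seed, which 11 mature names of the table carry, and miR-206-3p shares its seed with other names of the table, 3 in all. None of these seeds is that of miR-22-3p.

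Mir22 differed modestly between the libraries. Its log2 ratio of replicate 2 over replicate 1 was 0.23, a 1.17-fold higher level in replicate 2, with an exact 95% counting interval of 1.16 to 1.18-fold. With 1 library on each side there is no replicate check and no test. The common biological coefficient of variation over the 324 genes, estimated with edgeR from these libraries, was 24.6%, or 0.50 as the SD of a gene's log2 ratio. The ratio of Mir22 lay within that SD, which is 1 value for all 324 genes whatever their level. Of the 71 other genes with a mean of at least 1000 CPM, 44 had a log2 ratio smaller in size. The median log2 ratio of these 71 genes was 0.008.

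Against a background in which 77 of the 324 genes (23.8%) differed by at least 1.5-fold between the libraries, Mir22 was not among them. The split was 14 (4.32%) toward replicate 2 and 63 (19.4%) toward replicate 1. With DESeq2 size factors the split was 30 higher in replicate 2 and 46 in replicate 1. The median log2 ratio of all 324 genes was -0.15, so that of Mir22 lay 0.38 above it, and 85.5% of the genes had a lower ratio. In size, without regard to direction, 44.1% of the genes had a smaller log2 ratio than Mir22. Among the 20 most abundant genes, 14 had a smaller one and 3 had a higher ratio, namely Mir206 at 1.06, Mir411 at 0.25 and Mir127 at 0.25.

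**Figure D3:**
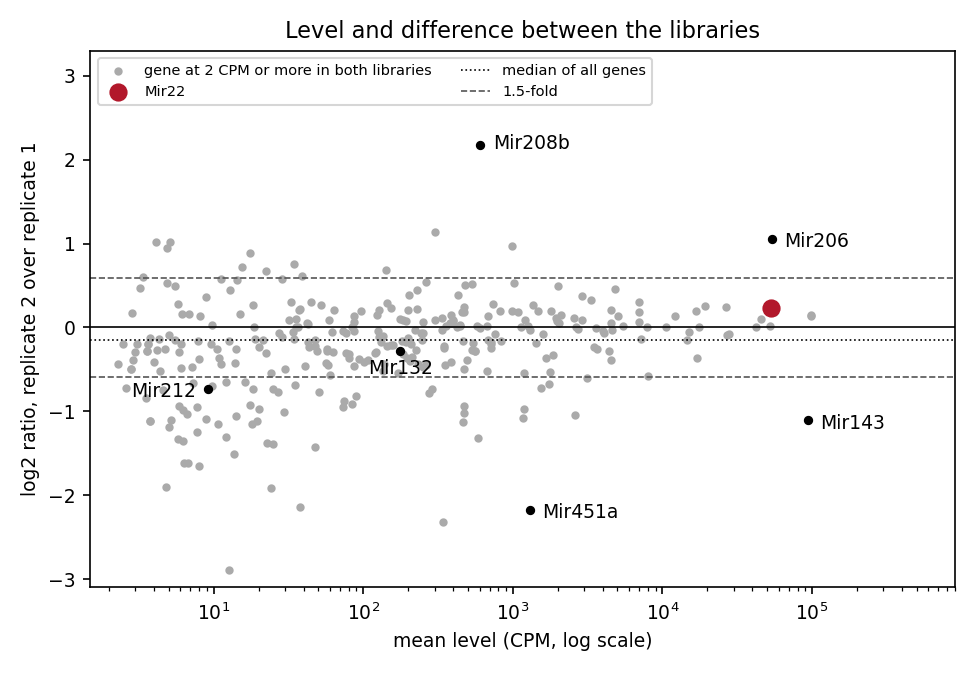
Log2 ratio of replicate 2 over replicate 1 against mean level in CPM (log scale) for the 324 genes at 2 CPM or more in both libraries, with lines at 0 (solid), at the median of all genes (dotted) and at 1.5-fold (dashed). Mir22 (red) lies at 0.23, inside the 1.5-fold lines, and Mir206, Mir208b, Mir143 and Mir451a (black) lie outside them.

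Ratios within a library do not depend on library totals or scaling, and they show how Mir22 moved against each other abundant gene. Of the 19 other genes among the 20 most abundant, 16 had a higher ratio of Mir22 to the gene in replicate 2 and 3 had a lower one. The median change of the ratio was 0.22 on the log2 scale. With 8 of the 19 genes the ratio changed by less than 1.1-fold.

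The steadiest partners were Mir127 and Mir411, both of the imprinted Dlk1-Dio3 cluster. Mir22 had 1.99 times the counts of Mir127 in replicate 2 and 2.01 times in replicate 1, and 2.77 times those of Mir411 in replicate 2 and 2.81 times in replicate 1. Against Mir23a the ratio was 0.979 in replicate 2 and 0.945 in replicate 1. Against 3 genes the ratio changed by more than 1.5-fold. Against Mir143 the ratio was 0.973 in replicate 2 and 0.385 in replicate 1. Against Mir206 it was 0.796 in replicate 2 and 1.41 in replicate 1, and against Mir322, a microRNA of muscle differentiation, 3.88 in replicate 2 and 2.58 in replicate 1.

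**Figure D4:**
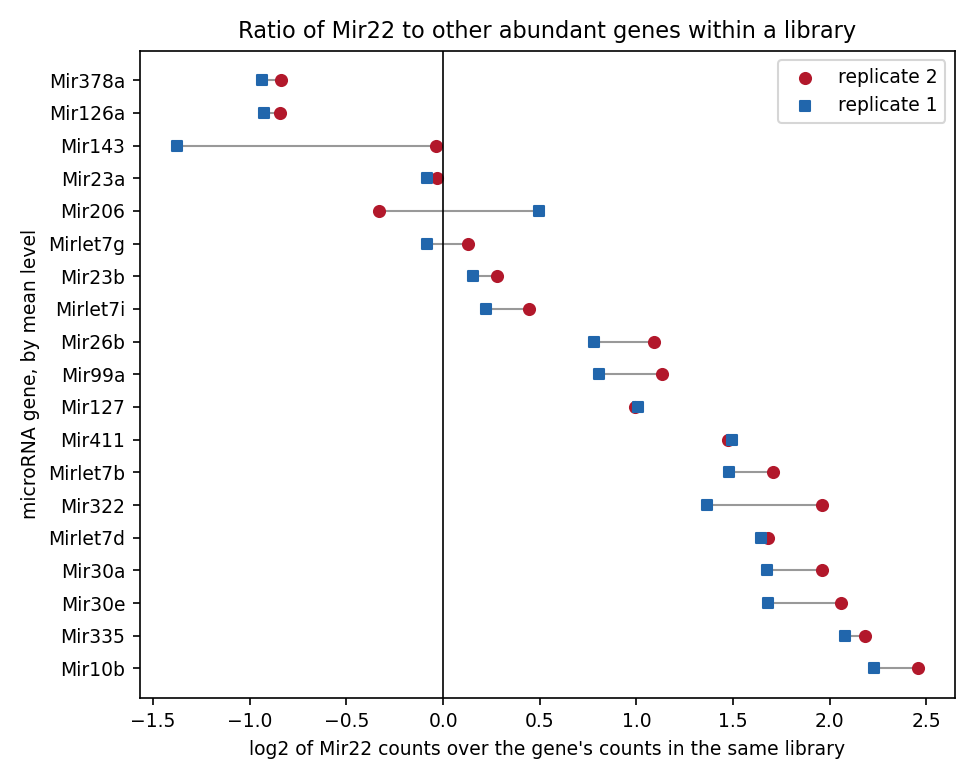
Log2 of Mir22 counts over the counts of each of the 19 other most abundant genes in the same library, with replicate 2 as red circles and replicate 1 as blue squares; at 0 the gene equals Mir22. The symbols nearly coincide for Mir23a, Mir127, Mir411 and Mirlet7d and lie far apart for Mir143 and Mir206.

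The summed markers of several cell types also differed between the libraries. The 5 listed genes of smooth muscle and fibroblasts, led by Mir143, summed to 6.34% of counts in replicate 2 and 13.3% in replicate 1. Mir143 made up nearly all of this sum, and the members did not all have ratios of 1 sign: the log2 ratio was -1.11 for Mir143, -1.04 for Mir145a and 0.49 for Mir214. The 11 genes of striated muscle, nearly all from Mir206, summed to 7.50% in replicate 2 and 3.64% in replicate 1. Here too the members had ratios of both signs, with a median log2 ratio of 0.15. Of the 10 that reached 2 CPM in both libraries, 4 were at least 1.5-fold higher in replicate 2. Another 2 were so in replicate 1, Mir133a-2 at -1.91 and Mir208a at -0.74. Of all 324 genes, 4.32% and 19.4% were past 1.5-fold in these directions. The 2 erythroid genes, Mir451a and Mir144, summed to 0.0587% in replicate 2 and 0.270% in replicate 1. The 5 immune genes summed to 0.257% in replicate 2 and 0.310% in replicate 1, and endothelial Mir126a held 10.3% and 9.33% in replicates 2 and 1. The immune members had log2 ratios of both signs, from -1.32 for Mir142 to 0.51 for Mir146. That of Mir126a was 0.15. The part of these cell types in the level of Mir22, or in its difference between the libraries, was not tested. In a whole muscle, fewer cells of a type and less microRNA per cell cannot be told apart. In these counts, the other defining muscle genes were far below Mir206. Of the copies of miR-1, Mir1a-1 was at 14.9 ± 1.31 CPM and Mir1a-2 at 348 ± 42.5 CPM, and of those of miR-133a, Mir133a-1 was at 17.5 ± 7.61 CPM and Mir133a-2 at 4.83 ± 3.96 CPM (SD, n = 2). These 4 share stretches of 22 bases with hairpins elsewhere. Mir133b, at 27.4 ± 0.761 CPM (SD, n = 2), shares none of that length. Shorter stretches were searched for Mir22 only. Reads with several alignments were given to no gene, so these levels leave out any that came from shared stretches. How many such reads there were was not tested, so the low values do not show that these microRNAs were scarce. Mir22 exceeded the summed counts of the striated muscle list in replicate 1, at 1.35 times, and not in replicate 2, at 0.769 times. This compares Mir22 mainly with Mir206, since 5 of the 11 genes share 22 bases with a hairpin elsewhere and may lack reads.

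Mir22 made up most microRNA-gene counts of its chromosome. Of the 137 microRNA genes annotated on chromosome 11, 26 reached 2 CPM in both libraries, and together the 137 held 8.13% of counts in replicate 2 and 8.01% in replicate 1. Mir22 alone made up 71.0% of these in replicate 2 and 61.3% in replicate 1. The next was Mir21a, a microRNA linked to fibrosis and inflammation, at 6431 CPM in replicate 2 and 9619 CPM in replicate 1.

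Its nearest microRNA neighbours lay far below it or had no counts. Within 1 Mb lie 5 other microRNA genes. Mir132 and Mir212, neurotrophic and stress-linked microRNAs of 1 cluster, lie 290.0 and 290.3 kb upstream on the same strand, in an intron of the non-coding gene 1700016P03Rik. Mir132 had 865 counts in replicate 2 and 304 in replicate 1, which is 159 CPM in replicate 2 and 193 CPM in replicate 1. Its mean of 176 CPM was above the median of 130 CPM over the 324 genes. Mir212 had 38 counts in replicate 2 and 18 in replicate 1, which is 7.0 CPM in replicate 2 and 11.4 CPM in replicate 1. Mir22 thus had 362 times the counts of Mir132 in replicate 2 and 254 times in replicate 1. Both neighbours had lower CPM in replicate 2, with log2 ratios of -0.28 for Mir132 and -0.73 for Mir212, where Mir22 had 0.23; the difference was not tested. Gm47300 and Mir3971 had 0 counts in both libraries, and Mir6926 had 0 in replicate 2 and 1 in replicate 1.

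Exon-hosted microRNA genes like Mir22 are a minority of the annotation. Hairpins that overlap an exon of a non-coding host on the same strand numbered 152, and 58 of them reached 2 CPM in both libraries (38.2%), against 324 of all 2202 (14.7%). The median level of those 58 was 190 CPM, against 130 CPM over all 324, and Mir22 had the second highest mean of the 58. Only Mir206, in an exon of Gm28653, had a higher mean in the class, at 53673 ± 26600 CPM (SD, n = 2), within its SD of the mean of Mir22. Next came Mirlet7i, Mirlet7b at 17666 ± 22.4 CPM and Mirlet7d at 16851 ± 1581 CPM. The class held 21.4% of counts on average, and Mir22 contributed 5.34% ± 0.604 (SD, n = 2).

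**Figure D5:**
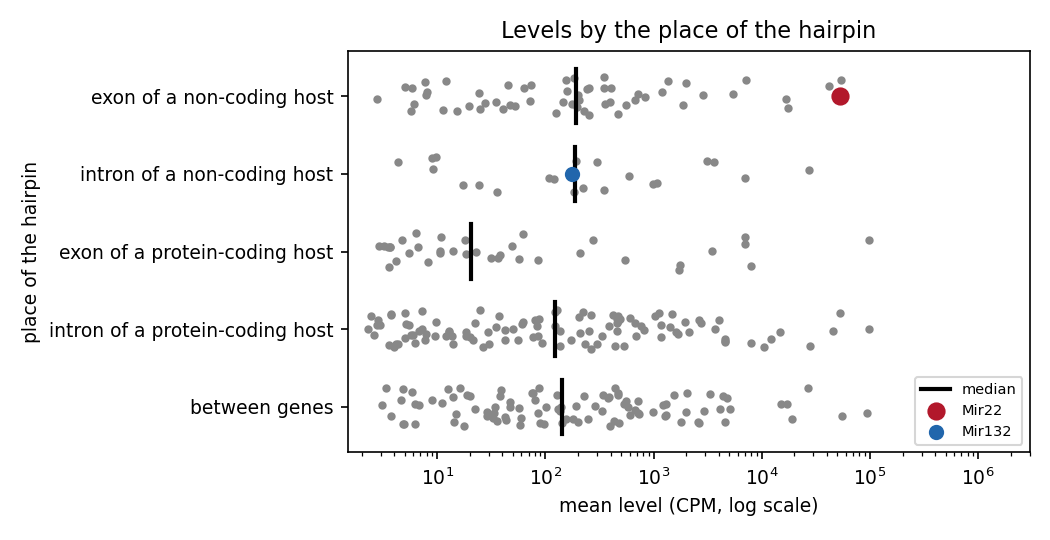
Mean level in CPM (log scale) of the 324 genes at 2 CPM or more in both libraries, by where the hairpin lies on its own strand; black bars are medians, the red point is Mir22 and the blue point Mir132. Mir22 lies near the top of the exon class, whose median is 190 CPM.

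Other microRNAs reported to act on the same targets as miR-22 are described in counts that leave out reads with several alignments. Mir22 was chosen by its level and ranked 6 of 2202 rows by mean. Members of almost any list would thus mostly lie below it, and the comparisons are description only. Among 7 listed genes reported to repress Hdac4, Mir206 was the sole one with a mean above Mir22. The others reached at most the 1759 ± 449 CPM (SD, n = 2) of Mir140, a cartilage microRNA. Of the 7, 2 were at least 1.5-fold higher in replicate 2 and 2 in replicate 1, against 4.32% and 19.4% of all 324 genes. These include the copies of miR-29b, which had ratios of opposite sign and few counts. Mir29b-1 had 105 in replicate 2 and 18 in replicate 1, and Mir29b-2 had 25 in replicate 2 and 17 in replicate 1. Of 10 genes reported to repress Sirt1, none exceeded Mir22, and all 10 summed to 0.370% of counts in each library. Mir195a led them at 2898 ± 132 CPM, and Mir34a, a microRNA induced by p53, had 253 ± 57.2 CPM.

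Of 17 genes reported to change heart growth in mice, as Mir22 does, Mir378a and Mir23a had higher means. The 16 that reached 2 CPM in both libraries had a median of 239 CPM, and 3 were at least 1.5-fold higher in replicate 2 and 5 in replicate 1, where 4.32% and 19.4% of all 324 genes were. The 3 were Mir208b, a microRNA within a slow myosin gene, at a log2 ratio of 2.18, Mir499 at 1.14 and Mir133a-1 at 0.89. The 5 were Mir133a-2 at -1.91, Mir199b at -0.91, Mir208a at -0.74, Mir212 at -0.73 and Mir29a at -0.72. The copies of miR-133a, like Mir208a and Mir208b, thus had ratios of opposite sign. Those of miR-133a rest on few counts. Mir133a-1 had 124 in replicate 2 and 19 in replicate 1, and Mir133a-2 had 11 in replicate 2 and 12 in replicate 1. Members that share 22 bases with a hairpin elsewhere may lack reads for the reason given above. They number 4 of 7 in the Hdac4 list, 6 of 10 in the Sirt1 list and 7 of 17 in the heart list.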

How the data were processed

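Small RNA libraries of 2 gastrocnemius samples, 1 group, were used. The authors deposited raw counts per microRNA gene, in columns for either strand, the gene's strand and the opposite strand, as read from the values. The assembly was mm10 per the labels, and the annotation GENCODE M21 per the readme files; the sources used here do not give the aligner, counting tool or filters. Gene-strand counts were scaled to CPM over all gene rows; 4 rows of reads given to no gene stayed out. Replicate 2 held 24096793 reads and replicate 1 held 7367359, so ratios of low genes rest on few counts. Log2 ratios used an offset of 0.5 counts. Scaling factors came from edgeR 4.0.16 (TMM) and DESeq2 1.42.0 in R 4.3.3, other values from Python 3.11.15, scipy 1.17.1 and RNAfold 2.7.2. The code for the ratio calls was checked on simulated counts, which says nothing of replicate error. Named genes were the 20 most abundant, rank neighbours, the 5 most alike, genes within 1 Mb and list members; Mir6935, Mir7092 and Mir3966 were named after their sequences were compared. The target and heart lists and the cell type markers matched gene rows in full; 1 further target list is not reported here. The gene and lists were chosen with earlier results of these data known. Neural, epithelial and liver marker lists summed to 0.0750%, 0.0233% and 0.00503% of counts in replicate 2, and 0.158%, 0.0423% and 0.00966% in replicate 1.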

Additional observations from a re-analysis of the deposited data

Results flagged for a closer look

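Of all reads, those with several alignments came to 69.7% in replicate 2 and 68.6% in replicate 1, outside every gene count. The tables give this only as a total, so whether any were miR-22 reads was not tested. Groups of 2 libraries are too small for a check of outlying samples.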

How the results depend on the processing

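The rank of Mir22 was 6 under every alternative run except the either-strand column, where it was 4, and 6 without either replicate. Its mean was 69859 CPM (6.99%) with that column, 88930 CPM (8.89%) when the 5 other most abundant genes were left out of the total, and 12618 CPM (1.26%) with all aligned reads as the total. Leaving out a replicate gave 49134 to 57682 CPM and 4.91 to 5.77%. The log2 ratio of 0.23 stayed positive throughout: it was 0.28 over aligned reads, 0.26 with the either-strand column, 0.31 with TMM, 0.43 with DESeq2 size factors and 0.36 with DESeq2 size factors from the 324 genes, chosen after seeing the data. DESeq2 factors, taken from the 470 genes with a count in both libraries, had a ratio of 3. Those genes include ones below 2 CPM. These scalings moved all ratios by 0.08, 0.20 and 0.13. Genes past 1.5-fold numbered 77, or 45 at a minimum of 10 CPM and 20 at 100 CPM, which test fewer genes. Without an offset, an alternative chosen after seeing the data, 82 genes passed and the median ratio was -0.13. No paired analysis was possible because the libraries form 1 group. Replicate 2 was 3.45 times deeper, which limits low genes such as Mir212 rather than Mir22.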

Other observations

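Other microRNA genes of chromosome 11 followed Mir22 at a distance. Mir10a, in the Hoxb cluster, reached 3949 CPM in replicate 2 and 5149 CPM in replicate 1. Mir744 stood at 3960 CPM in replicate 2 and 4068 CPM in replicate 1. Mir195a, of the miR-15 family, stood at 2991 CPM in replicate 2 and 2804 CPM in replicate 1. Its cluster partner Mir497 stood at 2038 CPM in replicate 2 and 1931 CPM in replicate 1. Mir338, a microRNA of myelinating glia, was at 749 CPM in replicate 2 and 1581 CPM in replicate 1.

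The hairpin of Mir22 lay within the usual range of composition. Its GC content was 55.8%, and 89 of the 324 genes at 2 CPM or more in both libraries had a higher one. Its predicted folding energy was -0.441 kcal/mol per base, against a median of -0.433, and 146 of the 324 had a lower one.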
